A study of Mus musculus with 6 samples.

Results

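The genes described here encode haemoglobin and 2 other proteins of red blood cells, measured as messenger RNA in whole mouse lung. They were chosen by name, as 8 of the 24061 gene rows in the count table: the alpha globins Hba-a1 and Hba-a2, the adult beta globins Hbb-bs, Hbb-bt, Hbb-b1 and Hbb-b2, and the red cell genes Alas2 and Slc4a1. The lungs came from CCSP/TGFalpha mice that had received doxycycline for 3 weeks, and from CCSP/- control mice that had received doxycycline for the same 3 weeks. Each group had 3 libraries, and both groups carried CCSP. CCSP stands for club cell secretory protein, a product of airway epithelium. Its promoter drives expression in lung epithelial cells, so TGFalpha, a ligand of the epidermal growth factor receptor, is made there. Doxycycline is the drug that switches transgenes on in inducible mouse lines. The series concerns lung fibrosis brought on by TGFalpha. Nothing in the labels ties the replicates to separate animals, and the spread behind the p-values may be technical. Whether the lungs were rinsed free of blood before RNA extraction is not given in the sources used here.

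Haemoglobin is a tetramer of alpha and beta globin chains, each holding a haem group that binds oxygen. Globin genes are transcribed in red cell precursors, which in adult mice lie in bone marrow and spleen. Young red cells (reticulocytes) enter the blood with much globin mRNA left, so blood inside the vessels of an organ brings globin transcripts into bulk RNA from that organ. In bulk samples, fewer cells of a type and less RNA per cell cannot be told apart.

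Library totals ran from 21479006 to 24914322 counts. Defining transcripts of the labelled tissue were present: Sftpc, which encodes surfactant protein C of alveolar type 2 cells, was at 7540, 4744 and 5589 CPM in TGFalpha libraries and at 5250, 3456 and 3969 CPM in control libraries. CPM are counts brought to a common library size, with sizes scaled by TMM, a method that sets the bulk of the genes equal between libraries. Mouse Tgfa did not mark the genotype, at 26.6, 25.9 and 29.9 CPM in TGFalpha libraries and 26.4, 22.6 and 28.4 CPM in control libraries (log2 fold change 0.09 ± 0.16, SE; edgeR adjusted p = 0.739). The labels do not give the species of the transgene. A pair of libraries, TGFalpha replicate 1 and control replicate 1, stood apart in skeletal muscle transcripts. The summed level of 10 muscle genes was 2526, 70.6 and 64.6 CPM in TGFalpha replicates 1 to 3, and 1459, 53.5 and 63.2 CPM in control replicates 1 to 3.

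The globin rows are near copies of each other, and this limits how many separate measurements they hold. On GRCm38, Hba-a1 lies on chromosome 11 from 32283672 to 32284486 and Hba-a2 on the same chromosome from 32296492 to 32297310, both protein-coding genes on the plus strand. Hbb-bs lies on chromosome 7 from 103826523 to 103827928 and Hbb-bt from 103812524 to 103813923, both on the minus strand. Hbb-bs and Hbb-bt are the adult beta genes of one haplotype of mouse strains such as C57BL, and Hbb-b1 and Hbb-b2 are those of another haplotype, with no place on the reference chromosome in the annotation used. The coding sequences of Hba-a1 and Hba-a2 are 429 bases long and differ at 1 base, and those of Hbb-bs and Hbb-bt are 444 bases long and also differ at 1 base. The stretches of 61 coding bases around that base are shown, since within the coding sequence only reads across it could tell the copies apart. The annotated transcripts also differ in length, and their untranslated parts were not compared. They come from GENCODE M21 transcripts, read 5′ to 3′, cover coding bases 351 to 411 of the alpha genes and 384 to 444 of the beta genes, and have the differing base in capitals.
Hba-a1: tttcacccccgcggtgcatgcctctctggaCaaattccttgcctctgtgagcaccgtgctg
Hba-a2: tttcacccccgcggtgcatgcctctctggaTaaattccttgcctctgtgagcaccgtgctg
Hbb-bs: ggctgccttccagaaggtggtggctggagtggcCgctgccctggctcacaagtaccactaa
Hbb-bt: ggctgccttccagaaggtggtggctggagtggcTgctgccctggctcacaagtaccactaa
Of all 50-base windows of these coding sequences, 87.1% were the same in Hba-a1 and Hba-a2, and 92.9% were the same in Hbb-bs and Hbb-bt.

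The counts showed this sharing directly. The Hba-a2 row held the same count as the Hba-a1 row in 5 of 6 libraries and differed by 4 counts in the sixth. The Hbb-b1 row equalled the Hbb-bs row in 6 of 6 libraries, and the Hbb-b2 row equalled the Hbb-bt row in 6 of 6. The Hbb-bt row differed from the Hbb-bs row by 0.789 to 1.59%. How reads that fit several genes were counted is not given in the sources used here. The 6 globin rows are therefore treated as 1 alpha and 1 beta measurement, given by Hba-a1 and Hbb-bs.

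Globin transcripts were lower in TGFalpha lungs than in control lungs. Hba-a1, an alpha globin gene, had 60830, 39514 and 50254 raw counts in TGFalpha replicates 1 to 3, against 91819, 190344 and 151495 raw counts in control replicates 1 to 3. On the scaled libraries this was 2585, 1625 and 2105 CPM in TGFalpha lungs and 3686, 8725 and 6917 CPM in control lungs. The groups did not overlap: every TGFalpha library lay under the lowest control library, which was control replicate 1. The fall was 3.06-fold, or -1.61 ± 0.35 on the log2 scale (SE, n = 3 per group), with an adjusted p of 0.0326 by the edgeR quasi-likelihood test with Benjamini-Hochberg adjustment over all 16089 genes tested. Hba-a2 gave a log2 fold change of -1.61 and the same adjusted p.

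Hbb-bs, an adult beta globin gene, had 89240, 48467 and 69923 raw counts in TGFalpha replicates 1 to 3, against 124168, 242444 and 180736 in control replicates 1 to 3. This was 3793, 1993 and 2929 CPM in TGFalpha lungs and 4985, 11114 and 8252 CPM in control lungs, again with no overlap and with control replicate 1 as the lowest control library. The order of the libraries within each group was also that of Hba-a1: replicate 2 was lowest among the TGFalpha lungs and highest among the controls. Hbb-bs fell by 1.48 ± 0.36 on the log2 scale (SE, n = 3 per group), or 2.79-fold (edgeR adjusted p = 0.0453). The rows of Hbb-bt, Hbb-b1 and Hbb-b2 gave log2 fold changes of -1.48 each, with edgeR adjusted p-values of 0.0454, 0.0453 and 0.0454.

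Alas2 encodes the red cell form of 5-aminolevulinate synthase, the enzyme of the first step of haem synthesis. The gene lies on chromosome X from 150547417 to 150570622 (GRCm38, plus strand) and overlaps Apex2 at one end, with no strand setting stated for the counts. It had 2198, 1489 and 2015 raw counts in TGFalpha replicates 1 to 3 and 2610, 6597 and 4518 in control replicates 1 to 3. On the scaled libraries Alas2 was at 93.4, 61.2 and 84.4 CPM in TGFalpha lungs and 104.8, 302.4 and 206.3 CPM in control lungs. The groups did not overlap, though TGFalpha replicate 1 and control replicate 1 lay close together. The log2 fold change was -1.36 ± 0.35 (SE, n = 3 per group), with a 95% interval from -2.17 to -0.55, and the edgeR adjusted p of 0.0526 missed the threshold of 0.05.

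Slc4a1 encodes band 3, the chloride and bicarbonate exchanger of the red cell membrane. The gene lies on chromosome 11 from 102348820 to 102365281 (GRCm38). Its counts were few, at 93, 55 and 98 in TGFalpha replicates 1 to 3 and 73, 369 and 83 in control replicates 1 to 3. On the scaled libraries Slc4a1 was at 3.95, 2.26 and 4.11 CPM in TGFalpha lungs and 2.93, 16.9 and 3.79 CPM in control lungs. The groups overlapped, and control replicate 2 alone was high. The log2 fold change of -1.19 ± 0.65 (SE, n = 3 per group; 95% interval -2.67 to 0.28) did not pass the edgeR test (adjusted p = 0.274), and without control replicate 2 it was 0.036.

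**Figure D1:**
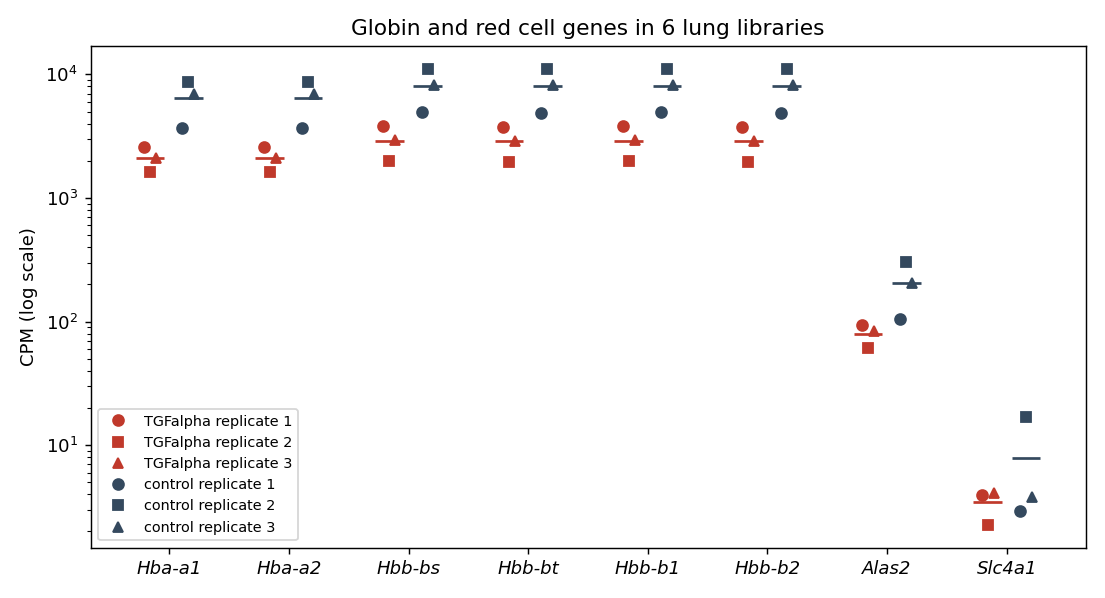
CPM (log axis) of each gene in the 3 TGFalpha libraries (red, left of each pair) and the 3 control libraries (dark, right of each pair), with symbols for replicates and a bar at each group mean. The globin and Alas2 points of TGFalpha lungs all lie under those of the controls, while for Slc4a1 only control replicate 2, at 16.9 CPM, lies apart from the rest.

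In all, 6 of the 8 genes, the globin rows, passed the edgeR threshold as lower in TGFalpha lungs, against 3.29% of all 16089 genes tested. The groups did not overlap for 7 of the 8, all but Slc4a1, against 15.5% of all genes tested that were lower in every TGFalpha library. Because the globin rows hold nearly the same counts, these are not 8 separate results. With the copies summed, which adds near-equal counts, alpha globin had a log2 fold change of -1.61 and passed (edgeR adjusted p = 0.0361), and beta globin had -1.48 and did not (adjusted p = 0.0579), where 3.25% of the genes of that fit were called lower. With 1 row kept for each globin type, Hba-a1 and Hbb-bs both passed, with edgeR adjusted p-values of 0.0319 and 0.0444. DESeq2 called 7 of the 8 genes lower, Alas2 included, where it called 7.3% of all genes it tested lower. The median log2 fold change was -1.48 over the 8 genes and 0.01 over all genes tested.

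The globin calls did not hold in 5 of the 6 fits that left out 1 library. When 1 library was left out, none of the 8 genes passed the edgeR test without TGFalpha replicate 1, 2 or 3, without control replicate 2 or without control replicate 3, though 7 had an unadjusted edgeR p under 0.05 in each of these 5 fits. In them the edgeR adjusted p ran from 0.07 to 0.12 for Hba-a1 and from 0.087 to 0.141 for Hbb-bs. The log2 fold change of Hba-a1 stayed between -1.90 and -1.33 over all 6 such fits and that of Hbb-bs between -1.74 and -1.19, so the direction did not change. Without control replicate 1, the lowest control, 7 genes passed. Without both libraries that held skeletal muscle transcripts, 7 genes passed. The log2 fold changes were then -2.07 for Hba-a1 (edgeR adjusted p = 0.0182), -1.98 for Hbb-bs (0.0282) and -1.81 for Alas2 (0.0198). The share of all genes called in these fits is not given here. The counts alone cannot show how far the change was particular to these 8 genes.

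By count, globin genes were among the most abundant in every library, at 0.356 to 2.02% of the counts. With 1 alpha and 1 beta row counted and the 4 copy rows dropped from the total, globin made up 0.644, 0.356 and 0.521% of the counts in TGFalpha replicates 1 to 3, and 0.886, 2.02 and 1.60% in control replicates 1 to 3. The 95% Wilson interval of each share was at most 0.0119 percentage points wide, and covers counting error only. The mean was 0.507 ± 0.145% in TGFalpha lungs and 1.502 ± 0.574% in control lungs (SD, n = 3 per group). The share was 2.88-fold lower in TGFalpha lungs, and the groups did not overlap. The exact two-sided permutation test gave p = 0.1, the smallest that 3 against 3 libraries allow. With all 6 globin rows counted as deposited, the share was 2.02, 1.09 and 1.63% in TGFalpha replicates 1 to 3 and 2.72, 6.04 and 4.75% in control replicates 1 to 3. By count, with the 4 copy rows left out, Hbb-bs held rank 7, 30 and 12 among the genes of the 3 TGFalpha libraries and rank 7, 2 and 2 among those of the 3 controls. Hba-a1 held rank 15, 42 and 22 in TGFalpha libraries and rank 14, 4 and 4 in control libraries.

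Per length of transcript, the globin rows were far above Alas2, and Alas2 above Slc4a1, in both groups. Hbb-bs averaged 4626 ± 1433 CPM per kilobase in TGFalpha lungs and 12925 ± 4883 CPM per kilobase in control lungs. Hba-a1 averaged 3012 ± 687 CPM per kilobase in TGFalpha lungs and 9217 ± 3652 in control lungs (SD, n = 3 per group). Hbb-bs was above Hba-a1 in each of the 6 libraries, though their ranges over the libraries of a group overlapped, and both levels depend on how shared reads were counted and on which copy's length is used. Hba-a2, whose annotated transcript is shorter, averaged 3800 CPM per kilobase in TGFalpha lungs and 11630 in control lungs. Hbb-bt averaged 4087 in TGFalpha lungs and 11415 in control lungs. By the means of these copies, beta was above alpha in TGFalpha lungs, but alpha was above beta in control lungs. Alas2 followed at 39.1 ± 8.15 CPM per kilobase in TGFalpha lungs and 100.4 ± 48.5 in control lungs. Slc4a1 was lowest, at 0.757 ± 0.225 CPM per kilobase in TGFalpha lungs and 1.73 ± 1.72 in control lungs.

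Ratios between these genes within a library, which do not depend on the scaling, overlapped between the groups. The ratio of Hba-a1 to Hbb-bs counts was 0.682, 0.815 and 0.719 in TGFalpha replicates 1 to 3 and 0.740, 0.785 and 0.838 in control replicates 1 to 3, with overlapping groups (exact permutation p = 0.4). Alas2 had 14.7, 16.9 and 16.8 counts per 1000 globin counts in TGFalpha libraries and 12.1, 15.2 and 13.6 in control libraries. These groups overlapped too, with a log2 difference of 0.24 (exact permutation p = 0.2). Slc4a1 had 0.620, 0.625 and 0.816 counts per 1000 globin counts in TGFalpha libraries and 0.338, 0.853 and 0.250 in control libraries. Here control replicate 2 was the highest of all 6 libraries and the other controls the lowest (exact permutation p = 0.4). With the globin share and a ratio to endothelial markers given further on, 5 such values were tested, and the Benjamini-Hochberg adjusted p was 0.5 for each. At 3 against 3 these tests cannot show that the ratios were alike.

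**Figure D2:**
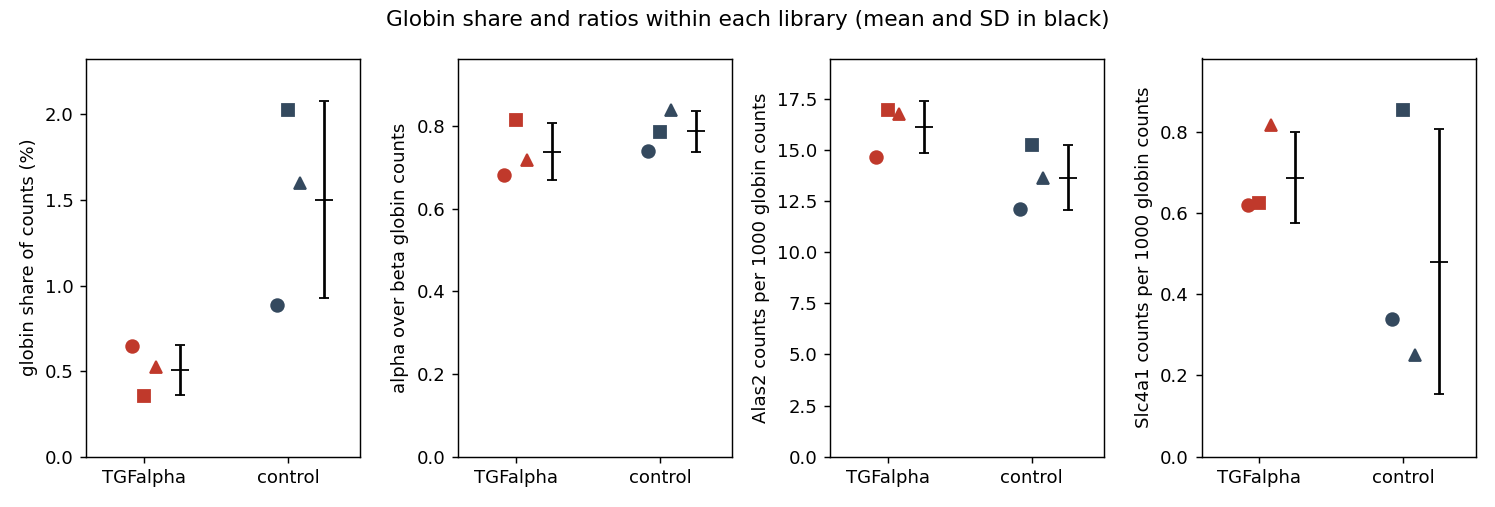
Globin share of library counts (%), alpha over beta globin counts, and Alas2 and Slc4a1 counts per 1000 globin counts, in each TGFalpha library (red, left) and each control library (dark, right), with circle, square and triangle for replicates 1 to 3 and the mean and SD in black. The globin share separates the groups, at 0.507 ± 0.145% in TGFalpha lungs and 1.502 ± 0.574% in control lungs, while the 3 ratios overlap between groups.

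The stretches in front of the globin genes and Alas2 are shown for reference, and whether they bear on the levels in lung was not tested. RefSeq promoter stretches on GRCm38.p6 matched 5 of the 8 genes by symbol, and the 250 bases before the start of 4 of them follow, 5′ to 3′ on the strand of the gene. Hba-a2 is left out, since its stretch shares a run of 247 bases with that of Hba-a1, whereas the longest run shared by Hbb-bs and Hbb-bt is 14 bases. Capitals mark matches on either strand to GATAA, the core bound by GATA factors, CACCC, the core bound by Krüppel-like factors, CCAAT, and TATAA.
Hba-a1, chr11:32283422-32283671, plus strand: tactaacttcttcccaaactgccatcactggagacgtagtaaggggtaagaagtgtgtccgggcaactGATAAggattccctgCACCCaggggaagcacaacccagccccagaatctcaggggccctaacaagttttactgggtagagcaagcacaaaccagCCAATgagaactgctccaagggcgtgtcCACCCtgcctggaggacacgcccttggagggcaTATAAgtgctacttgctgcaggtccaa
Hbb-bs, chr7:103827929-103828178, minus strand: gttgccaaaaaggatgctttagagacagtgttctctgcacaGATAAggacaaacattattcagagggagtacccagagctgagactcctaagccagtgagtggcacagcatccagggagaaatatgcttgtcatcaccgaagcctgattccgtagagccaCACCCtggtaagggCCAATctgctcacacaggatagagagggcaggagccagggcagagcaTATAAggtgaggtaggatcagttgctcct
Hbb-bt, chr7:103813924-103814173, minus strand: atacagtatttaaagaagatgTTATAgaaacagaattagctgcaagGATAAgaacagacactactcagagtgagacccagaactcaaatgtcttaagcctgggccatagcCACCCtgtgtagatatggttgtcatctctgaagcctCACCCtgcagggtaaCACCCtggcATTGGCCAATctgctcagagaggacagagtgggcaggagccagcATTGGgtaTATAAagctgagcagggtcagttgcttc
Alas2, chrX:150547167-150547416, plus strand: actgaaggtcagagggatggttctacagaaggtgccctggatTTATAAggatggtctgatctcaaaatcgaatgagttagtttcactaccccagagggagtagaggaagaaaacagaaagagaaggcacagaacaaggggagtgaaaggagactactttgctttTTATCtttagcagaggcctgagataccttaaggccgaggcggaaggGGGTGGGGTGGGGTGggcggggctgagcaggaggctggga
The globin stretches held all 4 motifs, each with a TATAA match whose first base lay at -27 in Hba-a1, -29 in Hbb-bs and -28 in Hbb-bt, counted from the gene start. Alas2 held 3 of them: 1 GATAA match at -86, 3 CACCC matches within a repeat, and 2 overlapping TATAA matches. Those TATAA matches lay at -208 and -207, unlike those named for the globins, and this window held no CCAAT. Among 32851 RefSeq promoter stretches of the same length, 22.6% held GATAA, 52.0% CACCC, 33.8% CCAAT and 22.8% TATAA. A match is a run of letters and not a measured binding site.

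Other genes of red cells and haem were called in both directions. Of 14 tested genes of haem synthesis and mitochondrial iron import, none was called lower by edgeR, though 2 were lower with an unadjusted p under 0.05. For this and the other lists, the share of all genes with an unadjusted p under 0.05 is not given here. DESeq2 called 1 lower, where it called 7.3% of all genes it tested lower. In the other direction, edgeR called 1 gene of the list higher, against 5.03% of all genes tested. That gene passed in 0 of the fits that left out 1 library. Alas1, the form of the first enzyme found in most tissues, was at 202.7, 178.9 and 232.0 CPM in TGFalpha lungs and 252.7, 291.6 and 240.3 CPM in control lungs, and its log2 fold change of -0.35 ± 0.16 did not pass (edgeR adjusted p = 0.196). Alad, the second enzyme, had a log2 fold change of 0.41 (edgeR adjusted p = 0.346). Fech, which puts iron into the haem ring, was at 54.5, 41.5 and 46.8 CPM in TGFalpha lungs and 51.3, 90.2 and 75.4 CPM in control lungs, with overlapping groups (log2 fold change -0.60, edgeR adjusted p = 0.126). The list had a median log2 fold change of -0.05.

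Of 4 tested globins of other tissues, 1 was called higher and none lower by edgeR, against 5.03% higher and 3.29% lower over all genes tested. None was lower at an unadjusted p under 0.05 or by DESeq2. Cygb, which encodes cytoglobin of fibroblasts and related cells, was at 28.2, 32.3 and 24.9 CPM in TGFalpha lungs and 9.35, 9.44 and 9.77 CPM in control lungs. It was higher in every TGFalpha library, by 1.58 ± 0.16 on the log2 scale (SE; edgeR adjusted p = 0.00232), and it passed in each of the 6 fits that left out 1 library. Cygb overlaps Prcd on the genome. Mb, the myoglobin gene of muscle, was at 344.3, 6.004 and 2.64 CPM in TGFalpha replicates 1 to 3 and 130.1, 0.504 and 2.65 CPM in control replicates 1 to 3, high only in the same pair of libraries as the other muscle transcripts (edgeR adjusted p = 0.684). Ngb, the neuroglobin gene, and Hbq1a, a theta globin gene, were low, with log2 fold changes of -0.53 and -0.27 that did not pass (edgeR adjusted p = 0.665 and 0.85). The embryonic globins Hba-x, Hbb-bh2 and Hbb-y had 0 counts in all 6 libraries, which allows 3 counts, or 0.12 to 0.14 CPM, per library. Hbb-bh1 had 0 counts in every TGFalpha library, and 3 counts in control replicate 1 with 0 in the other controls.

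Of 19 tested genes of the red cell membrane and skeleton, none was called lower by edgeR, with 4 lower at an unadjusted p under 0.05. DESeq2 called 4 lower. Over all genes tested, edgeR called 3.29% lower and 5.03% higher, and DESeq2 called 7.3% lower. The genes called higher were Add2, which encodes beta adducin, and Gypc, which encodes glycophorin C. Add2 was at 7.78, 19.4 and 8.34 CPM in TGFalpha lungs and 1.24, 1.70 and 0.913 CPM in control lungs (log2 fold change 3.20 ± 0.45 (SE), edgeR adjusted p = 0.00713). Gypc was at 28.01, 27.1 and 19.1 CPM in TGFalpha lungs and 11.7, 11.6 and 12.4 CPM in control lungs (log2 fold change 1.06, edgeR adjusted p = 0.0171). Add2 passed in all 6 fits that left out 1 library, and Gypc in 2, those without TGFalpha replicate 3 and without control replicate 1, with adjusted p up to 0.0814 in the others. Both genes are also active outside red cells. Epb42, the membrane protein 4.2, was too low to be tested, with 10, 3 and 6 counts in TGFalpha libraries and 4, 79 and 11 counts in control libraries. Epb42 was thus highest in control replicate 2, as Slc4a1 was. The most abundant genes of the list, Aqp1, a water channel that endothelium also makes, and Cd47, a surface protein of most cells, had log2 fold changes of -0.96 (edgeR adjusted p = 0.0509) and -0.37 (0.369). The median of the list was -0.38, with 12 tested genes negative and 7 positive.

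Among 14 tested red cell enzymes and other red cell proteins, 1 was called lower and 1 higher by edgeR, against 3.29% lower and 5.03% higher over all genes tested. Prdx2, a peroxidase of red and other cells, was higher, at 131.0, 88.2 and 89.7 CPM in TGFalpha lungs against 65.7, 47.3 and 52.3 CPM in control lungs (log2 fold change 0.90, edgeR adjusted p = 0.039), and among the 6 fits with 1 library left out it passed without control replicate 1 alone (up to 0.16 in the others). Bpgm, the enzyme that makes 2,3-bisphosphoglycerate, was at 52.7, 30.8 and 36.5 CPM in TGFalpha lungs and 53.7, 96.1 and 73.2 CPM in control lungs and did not pass (log2 fold change -0.89, edgeR adjusted p = 0.0759). Cat, the catalase gene, and Bnip3l, needed to clear mitochondria from reticulocytes, had log2 fold changes of -0.32 and -0.14 (edgeR adjusted p = 0.338 and 0.564). The median of the list was -0.11.

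Of 11 tested transcription factors and receptors of red cell precursors, 4 were called lower by edgeR, against 3.29% of all genes tested, and none higher. Kit, the stem cell factor receptor, was at 38.6, 53.9 and 83.6 CPM in TGFalpha lungs and 144.8, 174.6 and 218.5 CPM in control lungs (log2 fold change -1.61 ± 0.29 (SE), edgeR adjusted p = 0.0181). Tal1, Myb and Lmo2 had log2 fold changes of -1.30, -1.15 and -0.88 (edgeR adjusted p = 0.019, 0.0198 and 0.0499). Kit and Myb each passed in 3 of the 6 fits with 1 library left out, those without TGFalpha replicate 1 or 3 and without control replicate 1, Tal1 in 2 and Lmo2 in 0, with adjusted p up to 0.187. Kit is also made by mast cells and lung endothelium, and Tal1 and Lmo2 by endothelium. The factors that define red cell precursors were near 0 in both groups: Klf1 had 6, 7 and 0 counts in TGFalpha libraries and 0, 5 and 0 in control libraries, and Gata1 had 0, 8 and 13 counts in TGFalpha libraries and 2, 13 and 8 in control libraries. Tfrc, the transferrin receptor, had a log2 fold change of 0.21 (edgeR adjusted p = 0.585). The median of the list was -0.64, with 7 tested genes negative and 4 positive.

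Of 15 genes that clear haemoglobin, haem and iron, 1 was called lower by edgeR, a share near the 3.29% of all genes tested, and none higher. Hp encodes haptoglobin, which binds free haemoglobin, and was at 317.6, 253.0 and 330.1 CPM in TGFalpha lungs and 492.7, 479.4 and 429.3 CPM in control lungs (log2 fold change -0.64 ± 0.16 (SE), edgeR adjusted p = 0.0492). With 1 library left out, Hp passed in 0 of the 6 fits (adjusted p 0.0687 to 0.147). The ferritin genes Ftl1 and Fth1 had log2 fold changes of -0.02 and 0.21 (edgeR adjusted p = 0.968 and 0.684). The median of the list was -0.02.

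**Figure D3:**
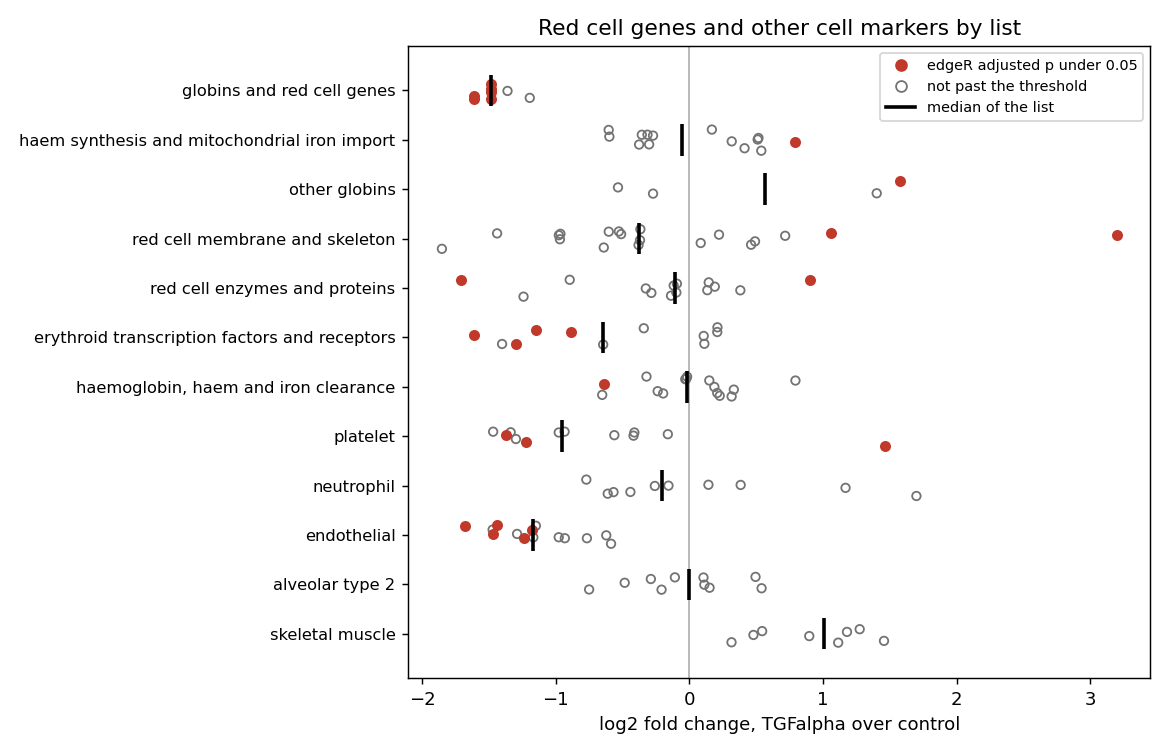
Log2 fold change, TGFalpha over control, of every tested gene in each list (1 row of points per list, spread up and down only to part the points), filled where the edgeR adjusted p was under 0.05, with a bar at the median of the list. The 8 globin and red cell genes lie between -1.61 and -1.19, while the lists of haem synthesis and of clearance centre near 0.

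Markers of other blood and vessel cells were examined beside the globins. Of 12 tested platelet genes, 2 were called lower and 1 higher by edgeR, against 3.29% lower and 5.03% higher over all genes tested. Ppbp, a platelet chemokine, was at 15.9, 12.6 and 19.5 CPM in TGFalpha lungs and 21.3, 49.3 and 41.4 CPM in control lungs (log2 fold change -1.22, edgeR adjusted p = 0.0491), and Tubb1, the platelet tubulin, had a log2 fold change of -1.37 (0.0491). The gene called higher, Gp1bb, overlaps Septin5, and its log2 fold change was 1.47 (edgeR adjusted p = 0.0239). Among the 6 fits with 1 library left out, Ppbp and Tubb1 passed in 1 each and Gp1bb in 2, with adjusted p up to 0.175. The platelet list summed to 45.6, 38.0 and 48.7 CPM in TGFalpha lungs and 52.3, 95.6 and 84.0 CPM in control lungs. Its median log2 fold change was -0.95, with 11 tested genes negative and 1 positive. Of 10 tested neutrophil genes, none passed by edgeR, with 1 lower and 1 higher at an unadjusted p under 0.05, and none passed by DESeq2. Its most abundant members, Cxcr2 and Ltf, had log2 fold changes of -0.26 and 0.38, and the list summed to 132.9 to 241.7 CPM in TGFalpha lungs and 169.5 to 237.6 CPM in control lungs.

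Endothelial cells line the vessels that hold the blood. Of 14 tested endothelial genes, 5 were called lower and none higher by edgeR, 9 did not overlap between groups, and DESeq2 called all 14 lower, where 3.29%, 15.5% and 7.3% of all genes tested were so. Tek, the angiopoietin receptor, was at 88.0, 94.5 and 187.1 CPM in TGFalpha lungs and 274.8, 423.3 and 486.2 CPM in control lungs (log2 fold change -1.68 ± 0.33 (SE), edgeR adjusted p = 0.0249), and passed in 2 of the 6 fits with 1 library left out, those without TGFalpha replicate 3 and without control replicate 1 (adjusted p up to 0.116 in the others). The 2 most abundant, Cdh5 and Cldn5, had log2 fold changes of -1.17 and -0.93 and did not pass (edgeR adjusted p = 0.0795 and 0.101). The list summed to 1679, 1521 and 2882 CPM in TGFalpha lungs and 3084, 5705 and 5191 CPM in control lungs, with a median log2 fold change of -1.17. Per endothelial marker count there were 3.80, 2.38 and 1.75 globin counts in TGFalpha libraries and 2.81, 3.48 and 2.92 in control libraries. On that measure the groups overlapped, and TGFalpha replicate 1 was the highest of all 6 libraries (log2 difference -0.29, exact permutation p = 0.5). The part of vessel or blood content in the globin difference was not tested.

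Epithelial and muscle markers gave no edgeR call. Of 10 alveolar type 2 genes, none passed by edgeR, with 1 lower and 1 higher at an unadjusted p under 0.05. DESeq2 called 1 in each direction, where it called 7.3% of all genes it tested lower. The share that DESeq2 called higher is not given here. The list summed to 21049 CPM or more in every TGFalpha library and to 20414 CPM or more in every control library. The 2 most abundant, Sftpc and Sftpa1, had log2 fold changes of 0.50 and -0.29 (edgeR adjusted p = 0.282 and 0.439). Of 8 tested skeletal muscle genes none passed by edgeR, and none at an unadjusted p under 0.05 or by DESeq2. The most abundant, Acta1 and Ckm, had log2 fold changes of 0.55 and 1.18 (edgeR adjusted p = 0.791 and 0.747), set by TGFalpha replicate 1 and control replicate 1. The globins did not go 1 way with the muscle genes: TGFalpha replicate 1 had the highest summed level of the 8 globin and red cell genes in its group (20345 CPM, against 11233 and 15971 in the other TGFalpha libraries), and control replicate 1 had the lowest in its group (27259 CPM, against 62050 and 46833 in the other controls).

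**Figure D4:**
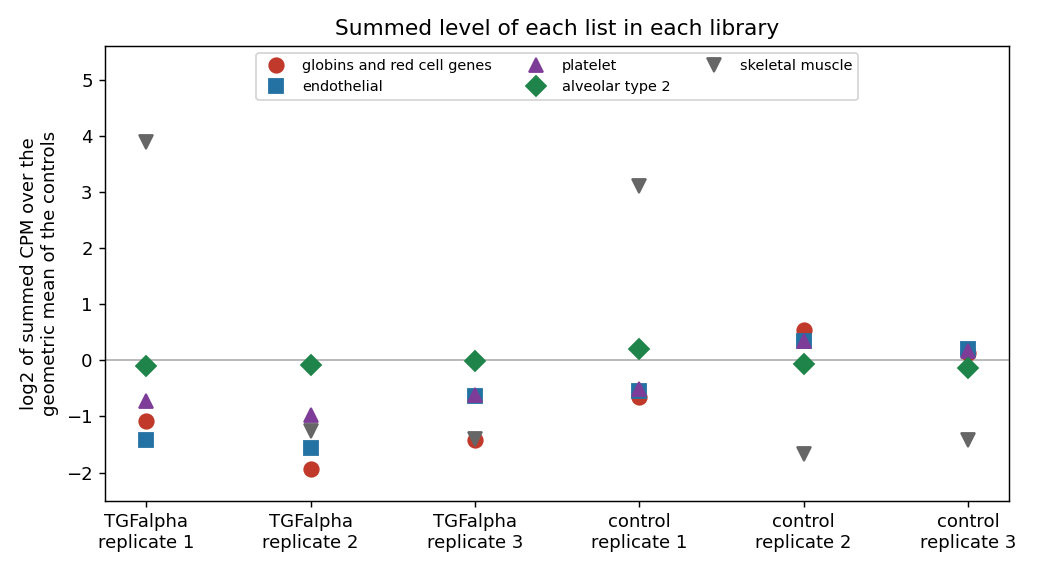
Summed CPM of each list in each library, as log2 of its ratio to the geometric mean of the 3 controls, with TGFalpha libraries on the left and control libraries on the right. The globin and red cell genes, endothelial genes and platelet genes are low in the TGFalpha libraries and in control replicate 1, alveolar type 2 genes stay near 0, and skeletal muscle genes are high in replicate 1 of each group.

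The genes most like the 8 over the 6 libraries were found by Pearson's r of log2 CPM with their mean, among 15052 genes with a mean of at least 1 CPM. The 4 with the highest r were E130308A19Rik (r = 0.992), Spop (0.991), Dapk2 (0.989) and Prkag3 (0.988), all over the same 6 libraries and with the group difference included. None of these passed the edgeR test, with adjusted p-values from 0.122 to 0.428. Spop, which encodes a substrate adaptor of a ubiquitin ligase, was at 209.4, 183.4 and 209.2 CPM in TGFalpha lungs and 226.7, 274.7 and 254.5 CPM in control lungs, so it followed the order of the libraries over a much smaller range. Bpgm, Fech and Ppbp stood at rank 13, 14 and 45 of the same order. Each globin row and Alas2 had an r of 0.989 or more with the mean to which it belongs, and Slc4a1 had 0.806. Since 6 of the 8 rows are globin copies, that mean is mostly a globin profile. A high r of the globin rows was thus fixed in advance.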

How the data were processed

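As deposited by the authors, the values are raw counts, whole numbers for 24061 gene identifiers in 6 libraries. Total RNA of lung was extracted with a column kit, per the labels' protocols, and the submitters' processing notes name bcl2fastq, CASAVA 1.8, TopHat, DESeq and the build mm10. The counting tool, its strand setting and its handling of reads that match several genes are not given in the sources used here, so antisense and overlapping genes cannot be told apart. Symbols came from a RefSeq table on GRCm38.p6, the same build, which named 23976 rows. The 85 unnamed rows stayed in totals and tests. Coding sequences and transcript lengths came from GENCODE M21.

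Groups were compared in edgeR 4.0.16 (R 4.3.3) by its quasi-likelihood F test, fitted to the whole table, with TMM scaling, the expression filter by group, group as the only term, and Benjamini-Hochberg adjustment over 16089 genes at 0.05. It was checked on simulated counts first. Single values per library were compared with exact two-sided permutation tests in scipy 1.17.1. DESeq2 1.42.0 and limma 3.58.1 (voom) were alternatives, with other scalings and filters, a replicate block, an adjusted p of 0.01 and each library left out. Added after the data were seen were the removal of both libraries with muscle transcripts, 1 row per globin type, all 6 globin rows for the share, and the globin count per endothelial count.

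The 8 genes and the 11 companion lists (154 genes, of which 152 were matched) were chosen with earlier results of these data known. Named from each red cell list were the genes called and the 2 most abundant tested, from each list of other cells the call with the smallest adjusted p and the 2 most abundant, and the genes most like the 8 (4 of the 5 that the rule takes). Some genes that this rule takes are not reported here. Epb42, Fech, Bpgm, Klf1, Gata1, Hba-x, Hbb-bh1, Hbb-bh2, Hbb-y, Ngb and Hbq1a were named after their values were seen. Same-numbered replicates correlated at 0.421, -0.052 and 0.222 in their deviations from the group means, so numbers were not used to pair libraries.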

Additional observations from a re-analysis of the deposited data

How the results depend on the processing

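The direction of all 8 genes was the same under every setting tried, except that the log2 fold change of Slc4a1 was 0.036 without control replicate 2 (range over the fits that left out 1 library or both muscle-bearing libraries -1.70 to 0.036). Of the 8 genes, 2 were called with the replicate block and 0 at an adjusted p of 0.01, where 6 were called in the fit as reported, and 0 to 7 when 1 library was left out. The summed alpha globin log2 fold change ran from -2.07 to -1.33, the summed beta from -1.98 to -1.18 and the log2 difference of the globin share from -2.06 to -1.27 in those fits. Summed beta globin passed the threshold with no filter (-1.49), DESeq2 (-1.50), limma-voom (-1.45), robust edgeR (-1.48), without control replicate 1 (-1.75) and without both muscle-bearing libraries (-1.98). Without those libraries the globin share differed by -2.06.

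Counts of calls in the other lists moved too, and the cause was not tested. DESeq2 called 7.3% of all genes it tested lower, and the share it called higher is not given here. For the other settings below, the share of all genes called is not given here. With DESeq2 they were 1 lower and 2 higher for haem synthesis, 4 lower for the membrane, 2 lower for red cell enzymes, 14 lower for endothelium, and 1 lower and 1 higher for alveolar type 2 cells. With the replicate block they were 0 higher for haem synthesis, 1 lower for the membrane, 0 lower for red cell enzymes, 0 for clearance and 1 higher for muscle. With limma-voom they were 1 lower for the membrane, 0 lower for red cell enzymes and 1 lower for platelets. The membrane count of lower genes was 1 with DESeq2 size factors and 2 with no filter, the stricter filter or robust edgeR. Clearance gave 0 with library totals or no filter, and platelets 0 lower with library totals. At an adjusted p of 0.01 haem synthesis, red cell enzymes, transcription factors, clearance, platelets and endothelium gave 0, and 1 membrane gene was higher. Without both muscle-bearing libraries there were 0 higher for haem synthesis, 1 lower and 1 higher for the membrane, 2 lower and 0 higher for red cell enzymes, 1 lower for transcription factors, 0 for clearance, 1 lower and 0 higher for platelets, and 2 lower for endothelium. When 1 library was left out, lower calls ranged over 0 to 2 for the membrane, 0 to 2 for red cell enzymes, 0 to 3 for transcription factors, 0 to 1 for platelets and 0 to 11 for endothelium, with 0 for clearance, and higher calls were 0 for haem synthesis, 1 to 2 for the membrane, 0 to 1 for red cell enzymes and 0 to 1 for platelets. The table holds no mitochondrially encoded genes, so the planned change of denominator dropped unnamed rows alone. Slc4a1 and the low red cell genes are limited by their few counts.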
